A study of Mus musculus with 4 samples.

Results

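Glycolysis and hypoxia response genes were followed in 2 epithelial structures of the E15.5 mouse fetus (Theiler stage 23), both from the kidney: the cortical collecting duct and the anlage of the loop of Henle. Named genes numbered 37, and members were all probe sets whose platform gene symbol was 1 of those names. Of these, 33 genes had a probe set assigned to them alone, 74 probe sets in all, out of 18193 genes on the array, and all 33 were bright enough to be tested among 12642 genes. Gapdh was represented by 3 control probe sets only, which are given as values. Gpi1, Eno1 and Pfkfb1 had no probe set under a single symbol and are not analysed here.

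The collecting duct was represented by 1 array (replicate 3) and the loop anlage by 3 arrays (replicates 1 to 3). All came from wild-type fetuses of the outbred CD-1 stock, sex unknown. Each array held RNA pooled from approximately 50 laser-captured sections of 5 kidneys, amplified over 2 rounds. Nothing in the labels says whether the pools shared kidneys or litters, so p-values measure only the spread between these samples, which may be technical. The comparison asks which members differ between the collecting duct, an outgrowth of the ureteric bud, and the part of the nephron that elongates into the loop.

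Glycolysis splits glucose into pyruvate in the cytosol and yields ATP without oxygen. Hypoxia-inducible factors are transcription factors whose alpha subunits are hydroxylated and destroyed when oxygen is plentiful. When oxygen is short they accumulate, bind the core letters ACGTG or GCGTG near their target genes, and raise glucose uptake, most glycolytic enzymes and several genes that limit mitochondrial pyruvate use. The fetal kidney develops in low oxygen, and the renal medulla, where the loop of Henle comes to lie, remains poorly oxygenated after birth.

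The promoters of 6 members are printed to set genes low by over 1 (log2) in anlage array 1 beside genes that were not. By brightest probe set, Egln3, P4ha1, P4ha2 and Ddit4 were lower there than in anlage arrays 2 and 3 by that gap. The glycolytic genes Pgk1 and Ldha were not. Still, Ldha was lowest of the anlage in array 1, at 13.76 against 14.01 and 14.13, as were the dimmer probe sets of Pgk1. Sequences are RefSeq windows of build GRCm38.p6, read 5′ to 3′ on the gene's strand from 250 bases before to 50 after the start, with every match to ACGTG or GCGTG on either strand in capitals. Capitals that read CACGT or CACGC are matches on the opposite strand.
Egln3 (chr12:54203825-54204124, minus strand): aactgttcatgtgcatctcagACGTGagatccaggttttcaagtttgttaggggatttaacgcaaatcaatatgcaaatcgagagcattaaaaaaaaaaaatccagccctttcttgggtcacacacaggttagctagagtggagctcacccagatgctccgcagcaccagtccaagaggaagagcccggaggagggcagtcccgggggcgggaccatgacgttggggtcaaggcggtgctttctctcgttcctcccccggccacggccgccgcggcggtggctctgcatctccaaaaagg
P4ha1 (chr10:59323046-59323345, plus strand): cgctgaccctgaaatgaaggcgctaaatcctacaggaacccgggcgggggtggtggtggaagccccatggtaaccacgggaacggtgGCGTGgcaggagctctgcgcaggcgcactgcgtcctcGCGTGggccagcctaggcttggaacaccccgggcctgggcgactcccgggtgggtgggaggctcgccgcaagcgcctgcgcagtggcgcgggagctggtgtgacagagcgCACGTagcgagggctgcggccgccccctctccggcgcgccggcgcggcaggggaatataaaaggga
P4ha2 (chr11:54100674-54100973, plus strand): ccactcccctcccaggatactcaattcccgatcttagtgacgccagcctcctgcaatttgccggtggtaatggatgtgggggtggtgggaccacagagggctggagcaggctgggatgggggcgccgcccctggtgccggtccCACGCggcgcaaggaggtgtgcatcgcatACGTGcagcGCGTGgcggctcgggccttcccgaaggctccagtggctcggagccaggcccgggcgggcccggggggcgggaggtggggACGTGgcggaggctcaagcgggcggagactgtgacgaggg
Ddit4 (chr10:59951721-59952020, minus strand): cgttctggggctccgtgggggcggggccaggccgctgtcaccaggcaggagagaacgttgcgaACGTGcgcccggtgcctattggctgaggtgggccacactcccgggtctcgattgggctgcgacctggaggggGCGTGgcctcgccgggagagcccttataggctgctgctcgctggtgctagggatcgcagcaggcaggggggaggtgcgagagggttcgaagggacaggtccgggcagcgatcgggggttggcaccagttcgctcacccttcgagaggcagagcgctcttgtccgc
Pgk1 (chrX:106186850-106187149, plus strand): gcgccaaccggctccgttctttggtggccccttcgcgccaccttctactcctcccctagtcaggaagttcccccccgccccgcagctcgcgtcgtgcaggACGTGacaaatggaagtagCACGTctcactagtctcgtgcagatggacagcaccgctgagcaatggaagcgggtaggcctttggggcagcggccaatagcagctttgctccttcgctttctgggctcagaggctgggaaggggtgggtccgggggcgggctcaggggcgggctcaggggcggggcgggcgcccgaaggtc
Ldha (chr7:46845554-46845853, plus strand): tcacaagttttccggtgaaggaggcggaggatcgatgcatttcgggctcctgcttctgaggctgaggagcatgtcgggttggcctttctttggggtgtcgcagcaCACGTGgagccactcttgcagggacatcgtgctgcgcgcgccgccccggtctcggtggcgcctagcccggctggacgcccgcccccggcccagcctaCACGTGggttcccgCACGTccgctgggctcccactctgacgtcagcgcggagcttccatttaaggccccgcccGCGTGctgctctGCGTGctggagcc

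Matches to these letters were found in both kinds of promoter shown. Of the 30 tested members with a window in the table, 28 had at least 1 match to either motif in at least 1 window. Counted by window, either motif stood in 83.7% of the 43 member windows, against 49.3% of the 21263 windows of protein-coding genes and 43.8% of all 32851 windows of the same length. ACGTG alone stood in 55.8% of the member windows and in 20.9% of those of protein-coding genes, and it overlaps the E-box CACGTG, which stood in 14% and 7.84%. Both motifs contain CG, and the median G+C content was 61.3% in member windows and 56.3% in those of protein-coding genes. A match describes letters only and not a bound site.

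The arrays differed before any member was compared. Signal values were quantile normalized and are given as log2(signal + 109.6), so a difference of 1 is a doubling for a bright gene and understates the change of a dim one. The ratio of 3′ to 5′ signal of the Gapdh controls, a measure of lost 5′ sequence, was 12.05 for the collecting duct and 10.25, 54.1 and 26.0 for anlage arrays 1, 2 and 3. Of 10 collecting duct markers all 10 lay higher in the collecting duct array than in all 3 anlage arrays. Of 10 loop markers all 10 lay lower. Both marker lists were chosen with earlier results of these data known, so these counts are no independent check of tissue identity. Anlage arrays 1 and 2 each stood apart. In array 1 the summed signal of 6 skeletal muscle markers was 17562, against 390 to 496 in the other 3 arrays. Most of it came from Acta1 and Myh3. In array 2 the loop markers summed to 24070, against 89586 and 73605 in anlage arrays 1 and 3. Collecting duct markers summed to 22245 in array 2, against 11222 and 7739, and 5 cap mesenchyme markers to 17250, against 5739 and 4076. The part of these signals in the member values was not tested.

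**Figure D1:**
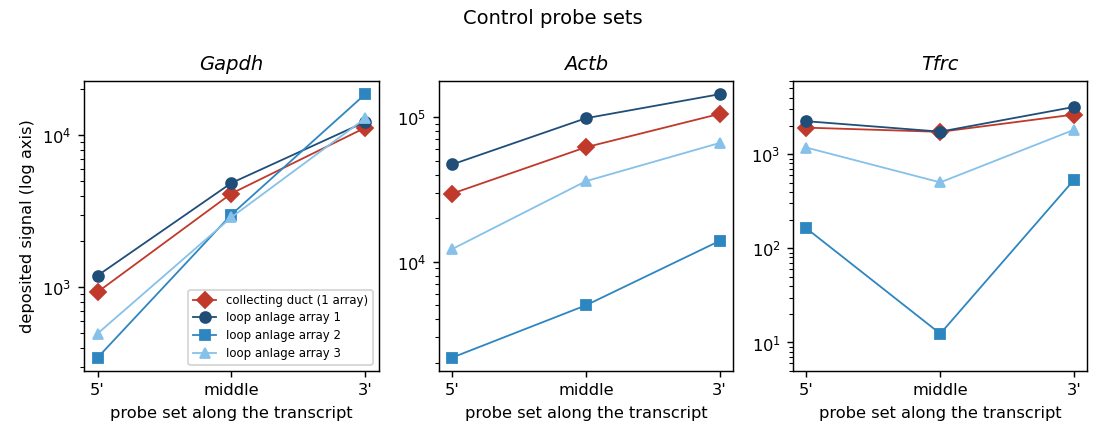
Deposited signal (log axis) of the control probe sets for the 5′ end, middle and 3′ end of Gapdh, Actb and Tfrc on the 4 arrays, 1 line per array. Gapdh falls from 18595 at the 3′ end to 344 at the 5′ end in anlage array 2, and from 12222 to 1192 in anlage array 1.

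Gapdh, the glyceraldehyde phosphate dehydrogenase of glycolysis, had nearly level 3′ signal and diverging 5′ signal. On the normalized log2 scale its 3′ control stood at 13.54 for the collecting duct and at 13.82, 14.003 and 13.60 for anlage arrays 1, 2 and 3, a difference of −0.26. Its 5′ control was 9.89 against 10.06, 9.38 and 9.34, a difference of 0.30. Direction for this gene therefore depended on which end of the transcript was read.

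The members as a whole differed between the structures about as often as other genes did. In the limma comparison 0 of 33 members passed an adjusted p of 0.05, as did 0% of all 12642 genes. At an unadjusted p under 0.05 there was 1 member, Epas1, which is 3.03% of the set against 3.41% of all genes. Values were higher in the collecting duct array for 22 members and lower for 11, and over all tested genes higher for 5702 and lower for 6940. The median difference was 0.18 on the log2 scale, against −0.06 for all tested genes, and 20 of 33 members differed by less than 0.5, as did 8122 of the 12642 genes. With median scaling of the arrays instead of quantile normalization the split was 15 higher and 18 lower, and the median of all genes itself moved to −0.24. Adm, Aldoa, Bnip3, Egln1, Hif1a, Ldhb and Pkm, all near 0, turned to lower values in the collecting duct under that scaling.

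Counted by array, the collecting duct lay above all 3 anlage arrays for 9 members, against 17.3% of all genes, and below all 3 for 8 members, against 24.3%. The 9 were Slc2a1, Pfkl, Pfkm, Pfkfb4, Aldoc, Pkm, Pdk1, P4ha1 and Ddit4, and the 8 were Pfkp, Tpi1, Pgk1, Eno3, Ldha, Pdk4, Epas1 and Egln3. These shares are 27.3% and 24.2% of the members. Under median scaling 3 members lay above all 3 anlage arrays, against 10.1% of all genes. Differences over 1 on the log2 scale were seen for 5 members, 15.2% of the set against 11.6% of all genes.

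**Figure D2:**
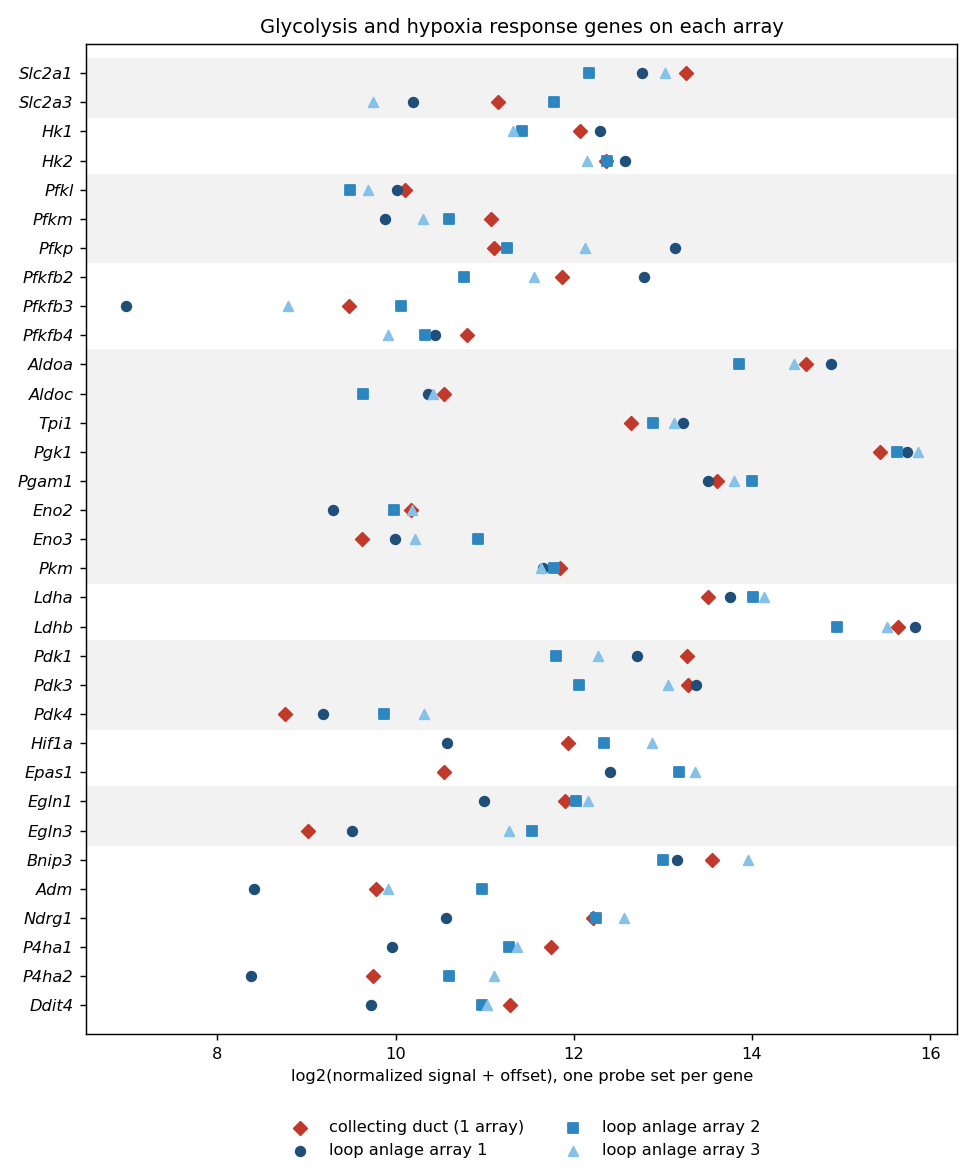
Normalized signal of the 33 tested members on each array, on the scale log2(signal + 109.6), with 1 probe set per gene and genes ordered by role (shaded bands). The collecting duct diamond lies left of the 3 anlage symbols most clearly for Epas1, and anlage array 1 lies left of the other arrays for Hif1a, Adm, Ndrg1, P4ha1, P4ha2 and Ddit4.

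Glucose enters cells through the facilitative transporters encoded by Slc2a1 and Slc2a3. Slc2a1 (GLUT1) was 13.26 in the collecting duct and 12.77, 12.17 and 13.02 over anlage arrays 1, 2 and 3. The collecting duct value was the highest of the 4, by 0.61 ± 0.54 (SE) over the anlage mean, and its other probe sets differed in the same direction, by 0.26 and 0.44. Slc2a3 (GLUT3) was 11.15 against 10.20, 11.78 and 9.74, so the collecting duct lay inside a wide anlage range, and among its 4 probe sets the difference ran from −0.65 to 0.87.

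The hexokinases, which trap glucose as glucose 6-phosphate, lay within the anlage range in their brightest probe sets. Hk2 stood at 12.36 in the collecting duct, with an anlage mean of 12.36 ± 0.21 (SD, n = 3). The 95% interval of its difference ran from −1.21 to 1.196. Hk1 was 12.08 against 11.68 ± 0.54 (SD, n = 3), within the anlage range, while its dimmer probe set was 9.23 in the collecting duct and 8.42, 7.002 and 7.60 in the anlage, a difference of 1.55.

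Phosphofructokinase, the main control point of the pathway, is a tetramer of liver (Pfkl), muscle (Pfkm) and platelet (Pfkp) subunits. Pfkm was 11.07 in the collecting duct and 9.88, 10.60 and 10.31 over anlage arrays 1, 2 and 3, a difference of 0.81 ± 0.56 (SE). Pfkp was 11.11 against 13.14, 11.25 and 12.13, a difference of −1.07 ± 0.79 (SE). The collecting duct thus had the highest Pfkm and the lowest Pfkp value of the 4 arrays, though for Pfkp the gap to anlage array 2 was only −0.15, and neither difference passed the test (limma, adjusted p of 1.00 for both). Pfkl was 0.37 ± 0.53 (SE) higher in the probe set used and 1.08 higher in another. All 3 probe sets of Pfkp were lower in the collecting duct than in the anlage mean, by −1.07 to −0.39, but only the brightest was bright enough to be tested. In the one with −0.39 the collecting duct (8.07) was level with anlage arrays 2 and 3 (8.07 and 8.09).

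The Pfkfb enzymes make and break fructose 2,6-bisphosphate, the activator of phosphofructokinase. Pfkfb3, the isoform with the highest ratio of kinase to phosphatase activity, was 9.48 in the collecting duct and 6.97, 10.06 and 8.80 over anlage arrays 1, 2 and 3. Anlage array 1 was 1.82 below array 3 and 3.08 below array 2, a spread larger than the difference between the structures, 0.87 ± 1.14 (SE). Pfkfb4 was 10.80 against 10.23 ± 0.28 (SD, n = 3) and lay above all 3. Pfkfb2 was 11.87, within an anlage range of 10.77 to 12.78, and its 4 probe sets ran from −1.002 to 0.92. Both ends of that run came from probe sets too dim to be tested.

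In the lower part of glycolysis Pgk1 and Ldha varied little between arrays in their brightest probe sets. Pgk1, which catalyses the first step that returns ATP, was 15.44 in the collecting duct and 15.74, 15.62 and 15.86 over anlage arrays 1, 2 and 3. All 3 of its probe sets lay lower in the collecting duct, by −0.86 to −0.30, though the dimmest ranged from 12.68 to 14.12 within the anlage. Ldha, the lactate dehydrogenase subunit that favours lactate formation, was likewise lowest in the collecting duct, at 13.50 against 13.76, 14.01 and 14.13. The differences of −0.30 ± 0.30 and −0.46 ± 0.41 (SE) were about as large as their errors. Tpi1, triose phosphate isomerase, was −0.44 ± 0.46 (SE) in the brightest probe set, with the other probe sets at −0.05 and 0.01. Eno3, the muscle enolase, was 9.63 against 9.99, 10.93 and 10.22, also below all 3.

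Other enzymes of this stretch lay inside the anlage range or just above it. Pkm, pyruvate kinase, was 11.85 in the collecting duct, with an anlage mean of 11.69 ± 0.08 (SD, n = 3), the smallest anlage spread of the members. Aldoa, the main aldolase outside liver and brain, differed by 0.20 ± 0.50 (SE), with 5 probe sets between 0.11 and 0.22, though the sign turned to −0.19 under median scaling. The brain-type aldolase Aldoc differed by 0.40 ± 0.58, the mutase Pgam1 by −0.17 ± 0.43 and the neuronal enolase Eno2 by 0.35 ± 0.59. Ldhb, the heart-type lactate dehydrogenase subunit, differed by 0.20 ± 0.42, with 4 probe sets from −0.02 to 0.20, and turned to −0.11 under median scaling. Many of these genes have processed pseudogenes, and probe sets ending in x_at or s_at can bind such copies, so the values may include them.

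Enzymes prominent in muscle went both ways in anlage array 1, which held muscle transcripts. Within the anlage, Pfkm was lowest in array 1 (9.88, against 10.60 and 10.31), and so was Eno3 (9.99, against 10.93 and 10.22). Aldoa, the aldolase of muscle, was highest of all 4 arrays there in all 5 of its probe sets (14.89 in the brightest), and so was Hk2, the main hexokinase of muscle (12.57). In the same array Acta1 and Myh3, markers of skeletal muscle, stood at 13.06 and 13.004, against 7.01 to 7.86 and 6.87 to 7.02 in the other 3, and the part of muscle RNA in these values was not tested.

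Pyruvate dehydrogenase kinases inhibit pyruvate dehydrogenase, which uses pyruvate in mitochondria, and here the kinase genes diverged. Pdk1, a hypoxia-induced member, was 13.27 in the collecting duct and 12.71, 11.80 and 12.27 over anlage arrays 1, 2 and 3. Pdk4, which responds to fasting and fatty acids, was 8.76 against 9.18, 9.87 and 10.32. Pdk1 was thus highest and Pdk4 lowest in the collecting duct, by 1.01 ± 0.56 and −1.03 ± 0.62 (SE), each with an adjusted p of 1.00 (limma). The 4 probe sets of Pdk1 all lay higher than the anlage mean, from 0.09 to 1.13. In those with differences of 0.09 and 0.54 anlage array 2 lay slightly above the collecting duct. The probe set with 1.13 was dim in anlage array 2, at 7.01 against 8.91 and 8.75 in anlage arrays 1 and 3. Pdk3 was 13.28, within the anlage range of 12.06 to 13.37. Without anlage array 1 both Pdk1 (1.28) and Pdk4 (−1.43) had an unadjusted p under 0.05 (0.0318 and 0.0356), with adjusted p of 0.413 and 0.421 (limma). In that refit 10.9% of all genes tested and 5 of 33 members had an unadjusted p under 0.05.

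**Figure D3:**
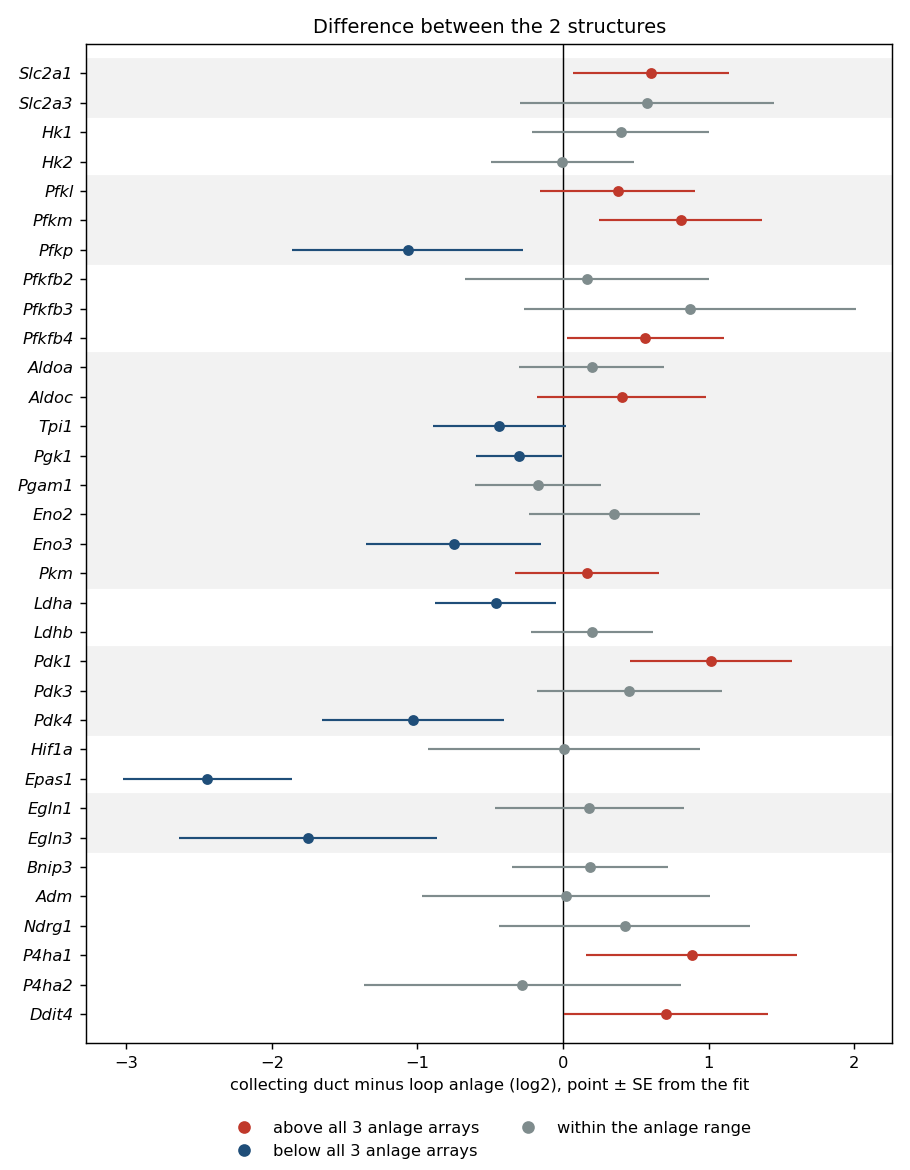
Difference of each member between the collecting duct array and the mean of the 3 anlage arrays (log2), with the SE from the limma fit as the bar and colour for the position of the collecting duct value. Epas1 at −2.44 and Egln3 at −1.75 lie farthest from 0, and most other points lie between −1 and 1.

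Epas1 had the largest difference of the members by brightest probe set, whereas with probe sets averaged P4ha1 (1.28) exceeded it (−1.23). Epas1 encodes HIF-2α, an alpha subunit prominent in endothelium and interstitial cells of the kidney. Its brightest probe set was 10.54 in the collecting duct and 12.40, 13.19 and 13.36 over anlage arrays 1, 2 and 3. The collecting duct value minus that of the nearest anlage array was −1.86, and the difference of −2.44 ± 0.58 (SE), 5.44-fold lower, had a 95% interval from −3.86 to −1.02. The unadjusted p was 0.00555 and the adjusted p 1.00 over all genes (limma). Leaving out anlage array 1, 2 or 3 gave −2.88, −2.20 and −2.23, with adjusted p from 0.295 to 1.00 (limma).

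A second Epas1 probe set did not show this difference. It was 9.49 in the collecting duct and 11.30, 7.36 and 9.88 in the anlage, a difference of −0.02. Within the anlage it was highest in the array with the lowest Gapdh ratio and lowest in that with the highest, an order the brighter probe set did not follow. With the mean of both probe sets the difference was −1.23 and the unadjusted p 0.121.

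Endothelial markers were also lower in the collecting duct than in the anlage mean, though not below every anlage array. Each of the 8 tested markers of the list was lower than that mean, 5 of them below all 3 anlage arrays, against 24.3% of all tested genes. Cdh5 (9.96) and Cd34 (9.585) lay above anlage array 1 (9.86 and 9.37), and Flt1 (8.79) above anlage array 2 (8.53). The summed signal of the 10 markers on the array was 5162 in the collecting duct and 8711, 16481 and 19264 over anlage arrays 1, 2 and 3. Kdr, the main receptor for vascular endothelial growth factor, was 8.502 against 9.91, 10.22 and 11.42. Proximal tubule markers summed to 4161 in the collecting duct and to between 10320 and 15182 in the anlage. Fxyd2 was the brightest of them in anlage arrays 1 and 3, at 9.12 in the collecting duct against 13.08, 10.91 and 12.38. Its order over the anlage arrays was that of the summed loop markers (89586, 24070 and 73605). Whether the proximal tubule sum stands for that cell type alone was not tested. Of the 8 proximal tubule markers 5 lay below all 3 anlage arrays, whereas Slc34a1, Lrp2 and Cubn lay within the anlage range. Stromal markers summed to 125562 against 120569 to 272183. The part of these marker groups in the Epas1 value was not tested. In such tissue pools fewer cells of a type and less RNA per cell cannot be told apart.

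Hif1a, which encodes the ubiquitous alpha subunit HIF-1α, showed a wide anlage range in place of a difference. Its brightest probe set was 11.94 in the collecting duct and 10.58, 12.34 and 12.87 over anlage arrays 1, 2 and 3. The difference was 0.01 ± 0.94 (SE), with a 95% interval from −2.28 to 2.29. Its second probe set by brightness ordered the anlage the other way, at 12.26, 10.14 and 10.59 with the collecting duct at 11.51. Another followed the first, at 9.44, 11.47 and 11.87 with the collecting duct at 11.15. So the rank of anlage array 1 among the 4 arrays depended on the probe set.

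**Figure D4:**
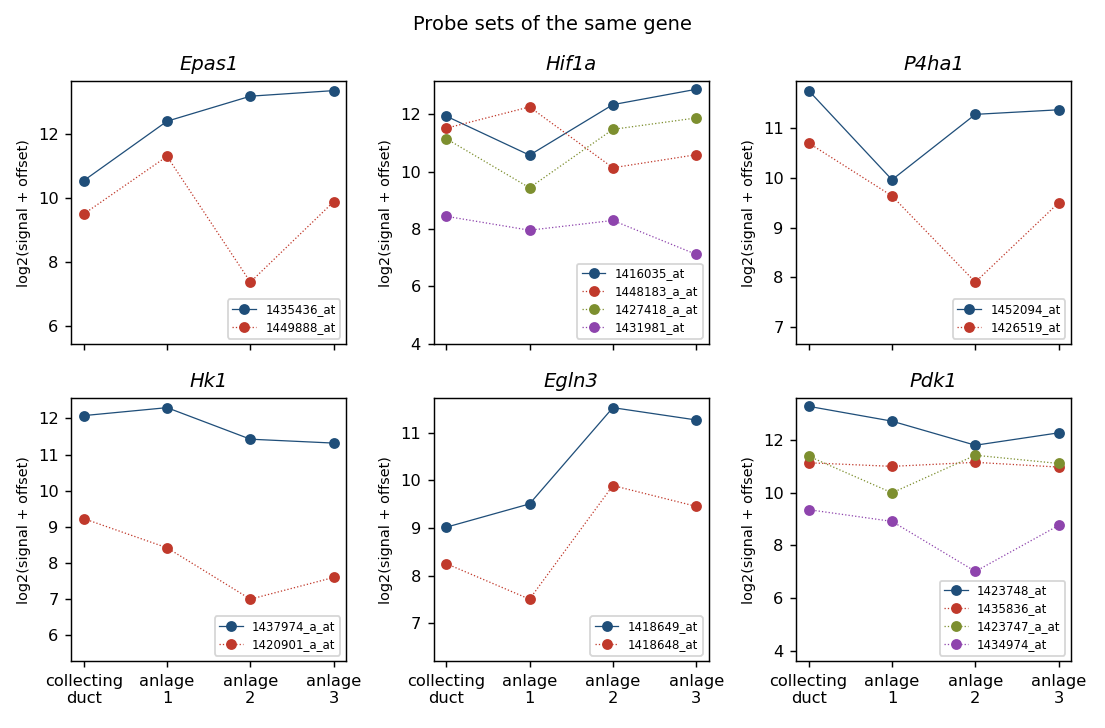
Normalized signal, log2(signal + 109.6), of every probe set of Epas1, Hif1a, P4ha1, Hk1, Egln3 and Pdk1 on the 4 arrays, the brightest as a solid line. Lines join the points of 1 probe set and stand for no order of arrays. For Epas1 the brightest probe set is lowest in the collecting duct (10.54), whereas the other is lowest in anlage array 2 (7.36).

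The prolyl hydroxylases that mark the alpha subunits for destruction are themselves induced by hypoxia. Egln3 (PHD3) was 9.02 in the collecting duct and 9.51, 11.53 and 11.27 over anlage arrays 1, 2 and 3. The collecting duct value was the lowest of the 4, by −1.75 ± 0.89 (SE), but anlage array 1 lay close to it, 0.49 higher. In the second probe set anlage array 1 was the lowest, at 7.51, and the collecting duct was 8.25. Without anlage array 1 the difference of Egln3 was −2.57, with an unadjusted p of 0.00168 and an adjusted p of 0.302 (limma), in the refit where 10.9% of all genes were under 0.05. Egln1 (PHD2), the main oxygen sensor in most cells, was 11.91 against 10.99, 12.03 and 12.16, a difference of 0.18 ± 0.65.

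Further hypoxia response genes were lowest in anlage array 1 by their brightest probe sets. Ndrg1, a stress response gene, was 12.22 in the collecting duct and 10.57, 12.25 and 12.56 over anlage arrays 1, 2 and 3. P4ha2, an alpha subunit of collagen prolyl 4-hydroxylase, was 9.75 against 8.37, 10.60 and 11.11. For both, the collecting duct lay between anlage array 1 and the other anlage arrays. Adm, which encodes the vasodilator peptide adrenomedullin, was 9.78 against 8.42, 10.97 and 9.91. Its difference was 0.02 ± 0.99 (SE) and turned negative under median scaling (−0.18).

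P4ha1 and Ddit4 were highest in the collecting duct. P4ha1 was 11.75 against 9.96, 11.27 and 11.36, a difference of 0.88 ± 0.73 (SE). Its second probe set was 10.70 against 9.63, 7.90 and 9.50, a difference of 1.68. Within the anlage that probe set was lowest in array 2, which had the highest Gapdh ratio, and not in array 1. With the mean of both probe sets its difference was 1.28, with an unadjusted p of 0.0391 and an adjusted p of 1.00 (limma). Ddit4, which restrains mTORC1 under low oxygen, was 11.28 against 9.73, 10.97 and 11.03, a difference of 0.71 ± 0.70. Without anlage array 1 the differences by brightest probe set were 0.46 for P4ha1 and 0.31 for Ddit4. Bnip3, a mitophagy receptor, was 13.56, within the anlage range of 13.004 to 13.95.

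Within the anlage the hypoxia genes and the glycolytic enzymes among the members did not follow the same pattern. Of the 10 hypoxia factor, hydroxylase and response genes, 8 were lower in anlage array 1 than in both arrays 2 and 3 by over 1 on the log2 scale, against 0 of 15 enzymes from hexokinase to lactate dehydrogenase and 12.3% of all tested genes. The 8 were Hif1a, Egln1, Egln3, Adm, Ndrg1, P4ha1, P4ha2 and Ddit4. Of the other 2, Epas1 was lower in array 1 than in arrays 2 and 3 by 0.78 and 0.96, and Bnip3 was lowest in array 2 (13.004, against 13.16 in array 1 and 13.95 in array 3). Counted over all 33 members, 9 met this rule, the ninth being Pfkfb3. Grouping by role and the gap of 1 were chosen after the values were seen, so the count is a description. It used the brightest probe set of each gene. Over anlage arrays 1, 2 and 3 a dimmer probe set of P4ha1 was 9.63, 7.90 and 9.50. For Ndrg1 a dimmer one was 9.15, 7.08 and 9.09, and for Egln1 10.57, 10.83 and 10.57. Hif1a also had a probe set ordered the other way. Dimmer ones of Egln3 and Adm were lowest in array 1, as was another of Ndrg1 (10.61, 12.12 and 12.43).

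That count moved with the processing. It was 10 of 10 under median scaling, where 28.8% of all genes met the rule, 6 of 10 with values as deposited (8.35%), 5 of 10 with 4 times the offset (7.2%) and 4 of 10 when the probe sets of a gene were averaged (7.32%). Enzymes met it in 0 of 15 cases under these settings, except for 2 under median scaling. Anlage array 1 was the lowest of all 4 arrays for 11 members, against 40.6% of all genes, and anlage array 2 for 9 members, against 20.4%.

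The collecting duct array differed from anlage array 1 in most of these genes, though Egln3 (9.02 against 9.51) and Epas1 were lower still in the collecting duct. It lay above anlage array 1 by over 1 for 6 of the 10 hypoxia genes, against 10.8% of all tested genes and 1 of the 15 enzymes. Median differences from anlage array 1 over the 10 genes were 1.37 for the collecting duct, 1.498 for anlage array 2 and 1.45 for anlage array 3. Over the 15 enzymes they were −0.21, −0.20 and −0.02, and over all tested genes 0.09, 0.34 and 0.21. All these medians and counts set the other arrays against the same array 1 values. The role groups were chosen after the values were seen, so this is a description. Transcript shortening, endothelial signal (8711 in array 1 against 16481 and 19264) and muscle signal all differed between array 1 and the other anlage arrays, and their part in the pattern was not tested.

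**Figure D5:**
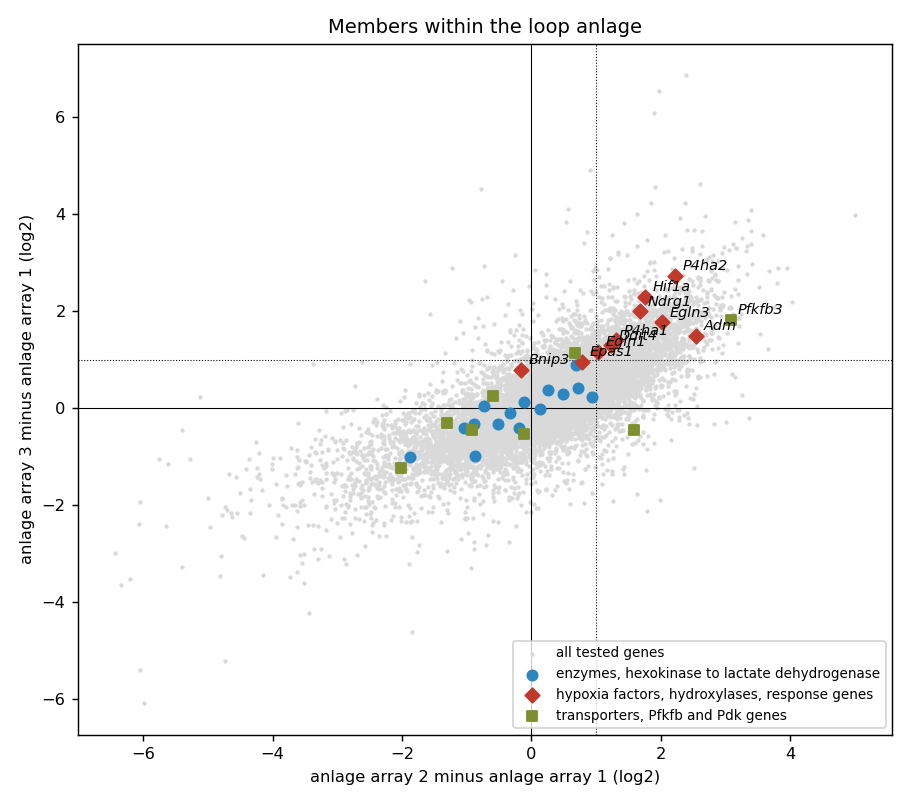
Each point is a gene, placed by its value in anlage array 2 (x axis) and in anlage array 3 (y axis) minus that in anlage array 1, both in log2 units, with all 12642 tested genes in grey and the members coloured by role. Dotted lines mark a gap of 1: 8 of 10 hypoxia genes lie above and to the right of both, and 0 of 15 enzymes do.

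Probe sets of the same gene gave a measure of how far single values could be trusted. Of 20 members with more than 1 probe set, 4 had probe sets that disagreed in the sign of the difference, namely Slc2a3, Tpi1, Ldhb and Pfkfb2. Among the 16 with more than 1 probe set above the brightness filter 3 did, and Pfkfb2 did not. When every probe set was tested on its own, 0 of 64 member probe sets above the brightness filter passed (limma, adjusted over 22499), and 1 had an unadjusted p under 0.05, again the brightest probe set of Epas1.

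Other genes of the same pathways, taken from a list of 64 symbols outside the set, gave no called gene either. Of the 46 tested, the collecting duct was higher for 21 and lower for 25, 0 passed the limma test and 0 had an unadjusted p under 0.05, and the median difference was −0.06. Farthest up lay Hkdc1, a hexokinase domain gene, at 11.12 against 9.61 ± 0.80 (SD, n = 3), then Vegfa, Plod2 and Slc16a1 with differences of 1.04, 0.88 and 0.55. Farthest down lay Fbp1, a gluconeogenic enzyme, at 7.94 against 9.001 ± 0.88, then Pdp1, Stc2 and Slc2a10 with −0.78, −0.78 and −0.76.

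Vegfa, the best known angiogenic target of the factors, did not share the pattern of the member hypoxia genes. It was 13.66 in the collecting duct and 14.27, 11.33 and 12.27 over anlage arrays 1, 2 and 3. Its highest value lay where the brightest probe sets of Hif1a, Ndrg1 and P4ha2 were lowest. Other probe sets of Hif1a and Ndrg1 were highest in array 1, as Vegfa was. From highest to lowest, the Vegfa values followed the Gapdh 3′ to 5′ ratios from lowest to highest (10.25, 12.05, 26.0 and 54.1). The part of transcript shortening in this order was not tested. Of the 25 tested hypoxia response genes outside the set, 3 were lower in anlage array 1 than in arrays 2 and 3 by over 1, a share close to that of all genes (12.3%). Among the 21 tested glycolysis and pyruvate genes outside the set 4 were, so the contrast among the members was not seen in these lists.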

How the data were processed

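The authors deposited a linear intensity for every probe set. GCOS is named in the submitters' processing notes, and its settings were not given in the sources used here. Every array had the same mean, 1500, after trimming 2% at each end, and medians ran from 207 to 526. Arrays were quantile normalized, and log2(signal + 109.6) was taken, the offset being the 25th percentile. Control probe sets (64) were left out. Each gene was represented by its brightest probe set with 1 symbol (34945 of 45037), and genes under 8.416, the 40th percentile, were not tested. Symbols came from the platform table, and the Entrez numbers of all 33 members matched RefSeq (GRCm38).

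The comparison used limma 3.58.1 in R 4.3.3 (lmFit, eBayes with trend, two-sided, Benjamini-Hochberg over 12642 genes, threshold 0.05). Its 2 residual degrees of freedom came from the anlage arrays, whose spread stood in for that of the single collecting duct array. With 1 array against 3, the smallest p of an exact permutation test is 0.25. The fit was tested on simulated data. Every member was named; from the other pathway list, the 4 genes farthest up and down. Members and lists were chosen with earlier results of these data known. Alternatives were normalization, offset, filter, probe set choice, variance trend and leaving out each anlage array. The number of arrays limits the precision.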

Additional observations from a re-analysis of the deposited data

How the results depend on the processing

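No member was called under any alternative (limma, adjusted p). Of 33 members, 22 kept the sign of their difference under every alternative and 11 did not. Without single anlage arrays the number of genes called over the whole array ranged from 0 to 14 (14 without array 2), members above all anlage arrays used from 11 to 14 and those below from 8 to 14, both highest without array 1, where 25.7% of all genes lay above and 47.5% below. Under median scaling 3 members lay above all 3 anlage arrays (10.1% of all genes), and with probe sets tested singly 15 probe sets did. Signs turned under median scaling for Adm (−0.18), Aldoa (−0.19), Bnip3 (−0.18), Egln1 (−0.11), Hif1a (−0.34), Ldhb (−0.11) and Pkm (−0.071), with values as deposited for Hif1a (−0.070) and Hk2 (0.0018), and with 4 times the offset for Adm (−0.061) and Hif1a (−0.019). Across refits without 1 anlage array, differences ran from −0.71 to 0.60 for Adm, −0.087 to 0.43 for Aldoa, −0.0061 to 0.46 for Bnip3, −0.20 to 0.39 for Egln1, −0.70 to 0.48 for Hif1a, −0.11 to 0.10 for Hk2, −0.043 to 0.39 for Ldhb, −0.20 to 0.80 for Ndrg1, −1.20 to 0.28 for P4ha2 and −0.29 to 0.75 for Pfkfb2. The hypoxia members low in anlage array 1 numbered 10 under median scaling, 6 as deposited, 5 with 4 times the offset and 4 when probe sets were averaged; these alternatives were chosen after seeing the data. The cause of these changes was not tested. No paired analysis was possible because the structures share only replicate number 3. With 1 collecting duct array and dim genes compressed by the offset, most member differences were no larger than their errors allow to be told from 0.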
